A study of Mus musculus with 12 samples.

Results

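The 10 genes of the RGS family followed here were Rgs1, Rgs2, Rgs3, Rgs4, Rgs5, Rgs7, Rgs10, Rgs12, Rgs16 and Rgs17. They were taken by name from a table of 47729 genes, so the 10 members were listed without a threshold on their values, and the question put to them was whether Rgs5 stood alone in its family. RNA was sequenced from mesenchymal cells of the uterus of healthy, cycling female Pdgfrb-BAC-eGFP mice, in which a bacterial artificial chromosome carries green fluorescent protein (GFP) under the control of Pdgfrb, a receptor gene of mural cells and fibroblasts. Cells were released by enzymatic digestion and sorted by flow cytometry into 2 populations with 6 libraries each. GFPtotal is the whole GFP-positive population, in which perivascular cells are bright for GFP and stromal fibroblasts weakly so, and GFPdim is the weakly fluorescent population by itself. No library of the bright cells alone was analysed here, so each difference below is between a mixture and one of its components and is not the difference between the 2 cell types. All mice carried the reporter, and no label gives a treatment, an age, a stage of the cycle or the mouse behind a library. The p-values therefore measure the spread between these libraries.

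RGS proteins (regulators of G-protein signalling) switch off signals that start at G-protein-coupled receptors. An activated receptor loads GTP onto a G alpha subunit, and the RGS domain speeds the hydrolysis of that GTP, which ends the signal to effectors such as phospholipase C beta. The R4 subfamily (Rgs1, Rgs2, Rgs3, Rgs4, Rgs5 and Rgs16 here) consists mostly of small proteins acting on Gi and Gq, the R7 subfamily (Rgs7) works as a complex with the G beta subunit Gnb5, the R12 subfamily holds Rgs10 and Rgs12, and the RZ subfamily holds Rgs17. In vessels, Rgs5 is known as a marker of pericytes and vascular smooth muscle, while Rgs2 is known for restraining Gq signals that constrict arteries.

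Of the 10 members, 6 lie on chromosome 1, and Rgs5 and Rgs4 are neighbours there. On GRCm38, Rgs5 spans chr1:169655501-169695813 on the plus strand and Rgs4 spans chr1:169741477-169747642 on the minus strand. The genes point toward each other, with 45.7 kb between their ends and 92.1 kb between their start sites. The others on chromosome 1 are Rgs2 (chr1:143999338-144004161, minus strand), Rgs1 (chr1:144242296-144249242, minus), Rgs16 (chr1:153740349-153745468, plus) and Rgs7 (chr1:175059087-175492500, minus). Rgs3 lies at chr4:62559847-62704001 (plus), Rgs12 at chr5:34949445-35039644 (plus), Rgs10 at chr7:128373621-128418758 (minus) and Rgs17 at chr10:5825663-5922400 (minus). Among the 10 members, 9 have an entry in RefSeq's table of start sites (GRCm38.p6). The 250 bases before RefSeq's annotated start are shown for Rgs5 and Rgs4, the neighbours that both rose in GFPtotal, and for Rgs2, the most abundant of the 10 members in GFPdim. The gene spans given above are those of Ensembl. RefSeq's start of Rgs2 lies inside its Ensembl span, so the Rgs2 window overlaps that span, while the windows of Rgs5 and Rgs4 adjoin theirs. The windows are chr1:169655251-169655500 (plus strand) for Rgs5, chr1:169747643-169747892 (minus strand) for Rgs4 and chr1:144004150-144004399 (minus strand) for Rgs2, each read 5′ to 3′ on the strand of its gene, with motif matches in capitals.
Rgs5: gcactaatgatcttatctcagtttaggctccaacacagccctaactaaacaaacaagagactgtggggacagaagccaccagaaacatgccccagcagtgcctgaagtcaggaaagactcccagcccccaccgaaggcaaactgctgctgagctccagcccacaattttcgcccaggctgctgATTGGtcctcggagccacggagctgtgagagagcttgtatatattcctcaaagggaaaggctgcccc
Rgs4: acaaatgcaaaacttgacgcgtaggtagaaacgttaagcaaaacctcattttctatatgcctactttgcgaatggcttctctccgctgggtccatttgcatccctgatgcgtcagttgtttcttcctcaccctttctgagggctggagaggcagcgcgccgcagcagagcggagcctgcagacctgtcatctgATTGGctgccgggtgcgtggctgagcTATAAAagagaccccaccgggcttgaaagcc
Rgs2: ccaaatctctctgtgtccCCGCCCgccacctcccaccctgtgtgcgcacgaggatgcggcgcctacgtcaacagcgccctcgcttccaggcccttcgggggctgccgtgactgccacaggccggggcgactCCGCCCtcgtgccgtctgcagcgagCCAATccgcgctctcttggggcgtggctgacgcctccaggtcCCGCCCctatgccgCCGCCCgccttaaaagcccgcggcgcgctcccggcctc
The Rgs2 window had a GC content of 72.4% and 30 CpG dinucleotides. The Rgs5 and Rgs4 windows both had a GC content of 53.6%, with 4 and 13 CpG dinucleotides, beside medians of 52.4% and 6 over 32851 promoter windows of the same length. The motifs, chosen after the sequences had been seen, were searched on both strands. CCAAT, present in 33.8% of all windows, was found in all 3: on the opposite strand (printed as ATTGG) at position -67 of Rgs5 and -57 of Rgs4, and on the gene's strand at position -94 of Rgs2, counted to the first printed base from the start site. TATAAA, present in 12.4% of windows, was found at position -31 of Rgs4 and not in the windows of Rgs5 and Rgs2. GGGCGG, present in 32.7% of windows, was found 4 times in the Rgs2 window, each on the opposite strand (printed as CCGCCC), and in neither of the others. TGGGAA and the CArG box, in 21.6% and 1.47% of windows, had no match in these 3. The matches describe letters in these windows and no binding was measured.

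Total counts per library were 12631266 to 14950639 in GFPtotal and 14339804 to 18425596 in GFPdim, of which mitochondrial genes took 32.4% to 49.0%. In a principal component analysis of all tested genes, the first component (34.0% of the variance) placed GFPtotal 3, 4 and 5 at 102 to 107, apart from GFPtotal 1, 2 and 6 (-3.82 to 6.66) and from GFPdim (-64.6 to -31.1). Library titles carry names with N for GFPtotal and with S for GFPdim. The file header of the GFPdim 6 library, titled S6, gives the name N8 to its alignment, while the other 11 headers match their titles. The name N8 has the form of a GFPtotal name, and whether this library belongs to the other group is not known. It was kept in the group of its title. Results are therefore also given without GFPtotal 3, 4 and 5 and without GFPdim 6 where they rest on them. Pdgfrb, the gene of the reporter, had 114 ± 36.0 CPM (counts scaled by library size, mean ± SD, n = 6) in GFPtotal and 65.1 ± 15.0 CPM (n = 6) in GFPdim, with overlapping libraries. This difference of 0.81 on the log2 scale (SE 0.21, adjusted p = 0.0305 by the quasi-likelihood test of edgeR with Benjamini-Hochberg adjustment) passed the threshold, a call lost with total library sizes, without GFPtotal 4, 5 or 6, without GFPdim 1, 2, 3 or 5, and without GFPtotal 3, 4 and 5 together (adjusted p up to 0.207).

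Rgs5 and Rgs4 were far higher in GFPtotal than in GFPdim, Rgs3 was lower, and the other 6 tested members did not pass the test. Of the 10 members, 9 had enough counts to be tested, and Rgs16 did not. Fold changes are log2 of GFPtotal over GFPdim, so that a positive value is higher in GFPtotal, and a gene is called at an adjusted p below 0.05 over all 14523 genes tested. By this rule 2 members were called higher and 1 lower, where 4.55% of all tested genes were called higher and 0.854% lower (5.41% in either direction). The 2 groups did not overlap in CPM for 2 members, beside 3.66% of all tested genes. The median log2 fold change of the 9 tested members was 0.44, against -0.00060 over all tested genes.

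**Figure D1:**
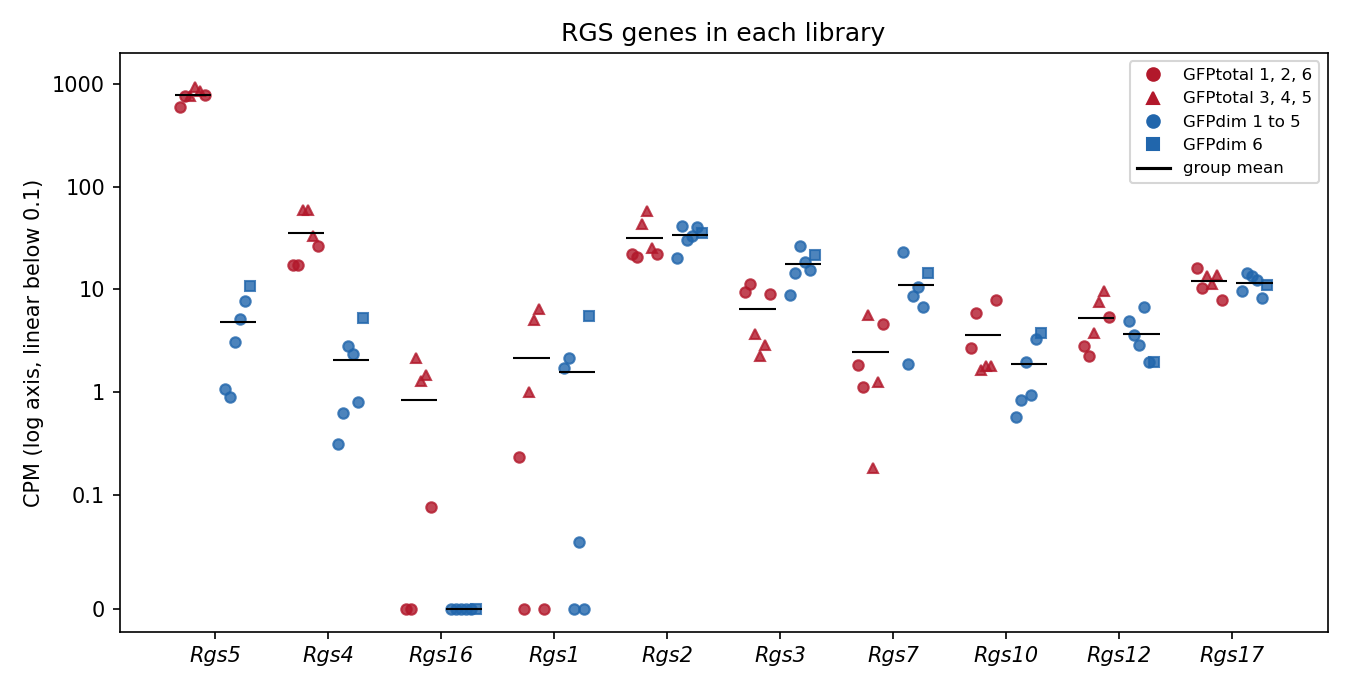
CPM of the 10 RGS genes (log axis, linear below 0.1) in each of 6 GFPtotal and 6 GFPdim libraries, with group means as bars. Rgs5 lies at 594 to 934 CPM in GFPtotal and at 0.904 to 10.9 in GFPdim, and Rgs4 is the other gene whose groups do not overlap.

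In the R4 subfamily, Rgs5 had 594, 759, 770, 934, 859 and 774 CPM in GFPtotal 1 to 6, and 1.08, 0.904, 3.08, 5.14, 7.71 and 10.9 CPM in GFPdim 1 to 6. The lowest GFPtotal library was thus far above the highest GFPdim library, and the values within GFPtotal lay close together while those within GFPdim spread widely. The raw counts behind these values were 7674 to 15220 in GFPtotal and 16 to 201 in GFPdim. The mean fell from 782 ± 114 CPM (SD, n = 6) in GFPtotal to 4.80 ± 3.95 CPM (n = 6) in GFPdim, so that GFPdim held 0.615% of the GFPtotal level. The log2 fold change of Rgs5 was 7.34 (SE 0.63, 95% interval 6.10 to 8.58, edgeR adjusted p = 3.84e-05). It was 7.77 without GFPdim 6, the library with the most Rgs5 in its group, and 7.18 without GFPtotal 3, 4 and 5. In bulk RNA, fewer cells of a type and less RNA per cell cannot be told apart, here or in the results that follow.

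Rgs4, best known from brain and heart as a brake on Gi and Gq signals, had 17.4, 17.4, 59.8, 58.9, 33.2 and 26.5 CPM in GFPtotal 1 to 6, and 0.316, 0.622, 2.83, 2.36, 0.800 and 5.32 CPM in GFPdim 1 to 6. The groups did not overlap, but Rgs4 varied more within GFPtotal than Rgs5 did, and its 3 highest libraries were GFPtotal 3, 4 and 5. Its mean was 35.5 ± 19.4 CPM (n = 6) against 2.04 ± 1.90 CPM (n = 6), and GFPdim held 5.75% of the GFPtotal level. The log2 fold change of Rgs4 was 4.11 (SE 0.62, 95% interval 2.89 to 5.33, edgeR adjusted p = 0.00139). It was 4.66 without GFPdim 6 and 3.29 without GFPtotal 3, 4 and 5 (adjusted p = 0.00811).

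Rgs16, an R4 gene known to be induced in activated cells, was counted in GFPtotal only, with 74 counts in that group and 0 in GFPdim. The counts in GFPtotal 3, 4 and 5 were 30, 21 and 22, GFPtotal 6 had 1, and GFPtotal 1 and 2 had 0. Nearly all of its reads thus came from the 3 libraries that stand apart, and GFPtotal 1 and 2 were at the same level as GFPdim. Taking 3 counts over the group as the limit that a count of 0 allows, Rgs16 was at least 29.7-fold higher in the pooled GFPtotal libraries. This bound covers counting error only and rests on GFPtotal 3, 4 and 5. Rgs16 shares 10.1% of its exonic bases with Gm28513 on the opposite strand, and strand was not used in the counting. With no filter on low counts Rgs16 was called higher in GFPtotal (edgeR adjusted p = 0.0321), which made it the third member called higher in that fit. The fit without a filter was not repeated without GFPtotal 3, 4 and 5.

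Rgs3, a longer R4 member with isoforms that act on Gi and Gq, moved the other way. It had 9.36, 11.3, 3.72, 2.27, 2.86 and 8.996 CPM in GFPtotal 1 to 6, and 8.92, 14.6, 26.5, 18.4, 15.4 and 21.6 CPM in GFPdim 1 to 6. The groups overlapped, because GFPdim 1 lay below GFPtotal 1, 2 and 6, and the lowest values were those of GFPtotal 3, 4 and 5. The log2 fold change of Rgs3 was -1.45 (SE 0.41, 95% interval -2.26 to -0.65, edgeR adjusted p = 0.0472), from means of 6.42 ± 3.91 CPM in GFPtotal and 17.6 ± 6.10 CPM in GFPdim (n = 6 each). This call rested on those 3 libraries: without GFPtotal 3, 4 and 5 the log2 fold change of Rgs3 was -0.85 (adjusted p = 0.312). It was also lost when GFPtotal 3, 4 or 5, or GFPdim 2, 3, 4, 5 or 6, was left out alone, with adjusted p values from 0.0567 to 0.116, and with the replicate number as a block (0.0762).

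Rgs2 and Rgs1, which lie near each other on chromosome 1, did not pass the test. Rgs2, the Gq-directed member known from vascular smooth muscle, had a lowest, median and highest value of 20.5, 23.7 and 57.4 CPM in GFPtotal and 20.2, 34.3 and 41.6 CPM in GFPdim. The groups overlapped, and GFPtotal 3 and 4 lay above every GFPdim library. Its log2 fold change was -0.07 (SE 0.28, 95% interval -0.61 to 0.47, edgeR adjusted p = 0.920), and without GFPtotal 3, 4 and 5 the log2 fold change of Rgs2 was -0.66 (adjusted p = 0.273). Rgs1, known from lymphocytes, reached 6.52 CPM in GFPtotal (lowest 0, median 0.616) and 5.54 CPM in GFPdim (lowest 0, median 0.883). Its reads were concentrated in GFPtotal 3, 4 and 5 and in GFPdim 1, 2 and 6, with 2 libraries of each group at 0. Its log2 fold change was 0.44 with a wide interval (SE 1.37, 95% interval -2.25 to 3.13, adjusted p = 0.904), so several-fold differences in either direction lie within it at this depth. The annotated exons of Rgs1 cover the 6947 bases of the whole gene, so reads from unspliced RNA were counted with the rest.

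**Figure D2:**
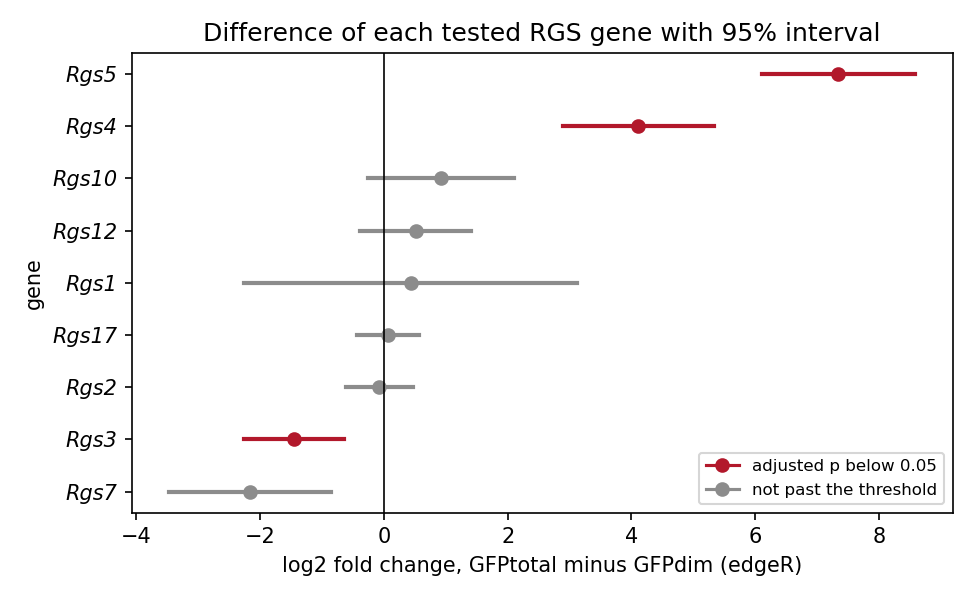
Log2 fold change of the 9 tested RGS genes, GFPtotal minus GFPdim, with 95% intervals from the edgeR fit; colour marks an adjusted p below 0.05. Rgs5 (7.34) and Rgs4 (4.11) lie far above 0, Rgs3 (-1.45) below it, and Rgs7 (-2.17) is lower still without passing the threshold.

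Rgs7, the R7 member and a gene known chiefly from neurons, had 1.86, 1.13, 5.57, 0.184, 1.26 and 4.63 CPM in GFPtotal 1 to 6, and 23.3, 1.86, 8.68, 10.6, 6.77 and 14.4 CPM in GFPdim 1 to 6. All but 1 of the GFPdim libraries lay above every GFPtotal library, and GFPdim 2 fell among them. Its log2 fold change was -2.17 (SE 0.67, 95% interval -3.47 to -0.86), which exceeds that of Rgs3 in size but did not pass the threshold (edgeR adjusted p = 0.0701). Rgs7 was called lower in GFPtotal by DESeq2 (adjusted p = 0.00833), with total library sizes (0.0488) and without GFPdim 2 (0.0443). Summed CPM of the neural and glial markers was 1.36 to 11.7 in GFPtotal and 8.98 to 22.7 in GFPdim, and 0 of the 2 tested markers were called by edgeR. Of these, Syt1, a synaptic vesicle gene, had 3.34 ± 3.63 CPM in GFPtotal and 15.99 ± 4.69 CPM in GFPdim (edgeR adjusted p = 0.0938), and DESeq2 and limma-voom called it lower in GFPtotal. The part of such cells in the Rgs7 values was not tested.

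Of the 10 members, those of the R12 and RZ subfamilies had means of at most 12.1 CPM in either group, and none was called. Rgs10, a small member known from immune cells, had 1.64, 2.25 and 7.84 CPM as lowest, median and highest value in GFPtotal and 0.569, 1.45 and 3.80 CPM in GFPdim, and its log2 fold change was 0.92 (SE 0.60, 95% interval -0.26 to 2.10, adjusted p = 0.434). Rgs12, a multidomain member with a GoLoco motif that binds inactive G alpha, had 2.27, 4.61 and 9.71 CPM against 1.95, 3.25 and 6.73 CPM, and its log2 fold change was 0.51 (SE 0.46, 95% interval -0.38 to 1.41, adjusted p = 0.591). Both genes overlapped between the groups. Rgs17, which acts on Gz and other Gi-type subunits, lay between 7.93 and 16.01 CPM in GFPtotal and between 8.30 and 14.3 CPM in GFPdim. Its log2 fold change of 0.07 had the narrowest interval of the 9 tested members (SE 0.26, 95% interval -0.43 to 0.57, edgeR adjusted p = 0.918).

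Whether Rgs5 differed from its relatives was tested on the difference itself. For each library, log2 CPM of Rgs5 minus log2 CPM of another member was taken, and the 2 groups were compared over all possible assignments of the labels for 8 pairs. The difference in Rgs5 exceeded that in Rgs4 by 3.43 on the log2 scale, with Rgs5 minus Rgs4 at 3.68 to 5.43 in GFPtotal and 0.12 to 3.07 in GFPdim. It exceeded that in the other 7 members by 6.88 (Rgs10) to 10.10 (Rgs7). In each of the 8 pairs the groups did not overlap, and the two-sided exact permutation p of 0.00216, also after Benjamini-Hochberg adjustment over the pairs, is the smallest that 6 against 6 libraries allow. The 8 tests share the same Rgs5 values, whose groups lie far apart. They are therefore not independent of each other or of the Rgs5 call. Rgs5 thus had the largest difference of the 9 tested members, and it was not the sole member called higher, since Rgs4 was called too. Without GFPtotal 3, 4 and 5, Rgs5 exceeded Rgs4 by 3.93 on the log2 scale (exact permutation p = 0.0119).

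Rgs4 and Rgs5 did not fall in proportion. In GFPtotal there were 2.29 to 7.76 Rgs4 counts per 100 Rgs5 counts, and in GFPdim 10.4 to 91.8, without overlap. The GFPdim figures rest on 5 to 98 Rgs4 counts and 16 to 201 Rgs5 counts in a library. Per length, as RPKM (CPM divided by the exonic length in kilobases), Rgs4 stood at 3.37 to 11.4 per 100 of Rgs5 in GFPtotal and at 15.2 to 135 per 100 in GFPdim. In GFPdim 3 the level of Rgs4 was above that of Rgs5, and in GFPdim 2 the levels were nearly equal.

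**Figure D3:**
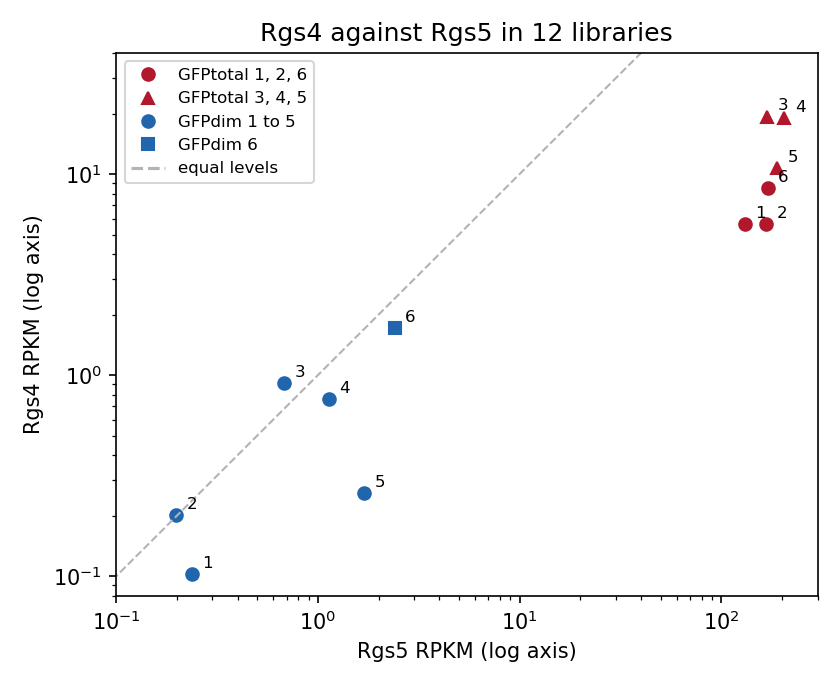
RPKM of Rgs4 against RPKM of Rgs5 on log axes in the 12 libraries, numbered within their group, with a dashed line at equal levels. The 6 GFPtotal libraries lie far to the right of the line (Rgs5 at 131 to 205 RPKM), and the GFPdim libraries lie near it or to its right.

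Levels of different genes were compared as RPKM. In GFPtotal the order of mean levels was Rgs5 (172 ± 25.2), Rgs4 (11.5 ± 6.25), Rgs2 (8.77 ± 4.21), Rgs10 (2.11), Rgs17 (1.46), Rgs12 (0.635), Rgs3 (0.595), Rgs7 (0.406), Rgs16 (0.355) and Rgs1 (0.307). Neighbours in this order overlapped in their library ranges, except Rgs5 with Rgs4 and Rgs2 with Rgs10. In GFPdim the order was Rgs2 (9.24 ± 2.15), Rgs7 (1.82), Rgs3 (1.63), Rgs17 (1.39), Rgs10 (1.11), Rgs5 (1.06 ± 0.869), Rgs4 (0.659), Rgs12 (0.445), Rgs1 (0.227) and Rgs16 (0). There, only Rgs2 and Rgs7 among neighbours had separate ranges. Within the listed members, Rgs5 thus went from the top of the order to the sixth place, within the spread of the low members around it. This order leaves out the other RGS genes. Of these, Rgs19 had a mean of 6.76 RPKM in GFPtotal and 7.31 RPKM in GFPdim. The GFPdim means of Rgs9, Rgs20 and Rgs22 were also above that of Rgs5, with overlapping library ranges.

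The make-up of the 10 listed members changed with Rgs5. Its share of the summed RPKM of the 10 members was 82.2% to 90.5% in GFPtotal and 1.20% to 10.5% in GFPdim, or at most 9.03% there without GFPdim 6. Rgs5 was the most abundant of the 10 in 6 of 6 GFPtotal libraries, and Rgs2, with 42.6% to 69.6% of the sum, was so in 6 of 6 GFPdim libraries. Rgs19, outside the 10, was above Rgs2 in GFPdim 1 (7.77 against 5.56 RPKM) and GFPdim 3 (8.68 against 8.37 RPKM). It was below Rgs2 in GFPdim 2, 4, 5 and 6. The summed RPKM was 147 to 245 in GFPtotal and 12.9 to 22.8 in GFPdim. Without Rgs5 and Rgs4, the remaining 8 members summed to 11.1 to 20.6 RPKM and 12.6 to 18.7 RPKM, which overlap over most of their range.

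**Figure D4:**
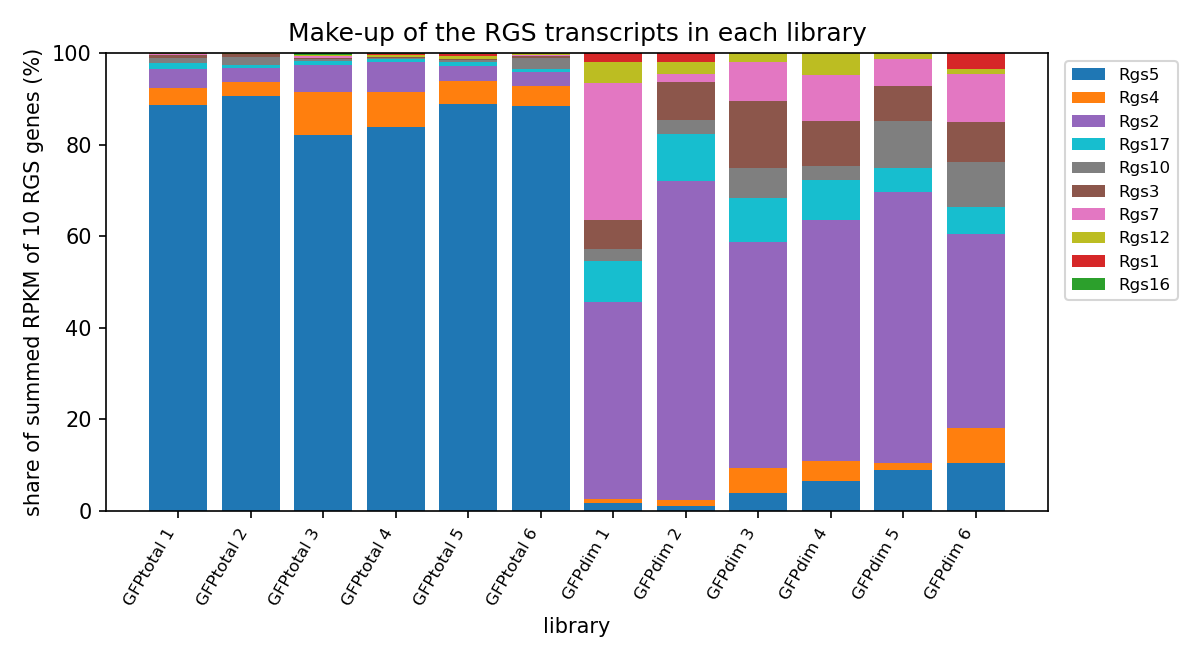
Share of each of the 10 RGS genes in their summed RPKM (%, stacked bars) in 12 libraries. Rgs5 fills 82.2% to 90.5% of each GFPtotal bar, and Rgs2 is the largest segment of each GFPdim bar.

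Several members also differed among the GFPtotal libraries themselves. GFPtotal 3, 4 and 5 had 33.2 to 59.8 CPM of Rgs4 and 25.3 to 57.4 CPM of Rgs2, above the 17.4 to 26.5 and 20.5 to 22.0 CPM of GFPtotal 1, 2 and 6. They had less Rgs3 (2.27 to 3.72 against 8.996 to 11.3 CPM) and less Rgs10 (1.64 to 1.80 against 2.71 to 7.84 CPM), while Rgs17 overlapped (11.2 to 13.7 and 7.93 to 16.01 CPM). In the same libraries the summed CPM of leukocyte markers was 17.4 to 39.2 against 81.7 to 90.1, and that of mural markers was 550 to 695 against 330 to 470. Fibroblast markers summed to 13952 to 16273 CPM against 23937 to 29004, and neural and glial markers to 1.36 to 4.46 against 5.65 to 11.7. In GFPdim the leukocyte markers summed to 36.5 to 81.7 CPM, and of the 3 tested leukocyte markers 0 were called by edgeR, DESeq2 or limma-voom (0 at an unadjusted p below 0.05, beside 2889 of all 14523 tested genes, or 19.9%, the background for each such count below). These splits were seen in the data and are not groups of the study, so no test was made, and the part of these cells in the RGS values was not tested.

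Beyond Rgs5 and Rgs4, 0 genes of their neighbourhood were called by edgeR. Within 250 kb of either gene, 4 further genes could be tested. Nuf2, of the kinetochore, had a log2 fold change of 1.75 (adjusted p = 0.148), Hsd17b7, a steroid and cholesterol enzyme, -0.85 (0.351), 3110045C21Rik 0.74 (0.681) and Ddr2, a collagen receptor, 0.52 (0.116), all from the edgeR fit. At an unadjusted p below 0.05 there were 2 of these 4, and 1 (Nuf2) was called by DESeq2 and 0 by limma-voom. Of the 18 genes within 250 kb of Rgs3, 6 were tested and 0 were called by edgeR, DESeq2 or limma-voom (0 at an unadjusted p below 0.05). Annotated GENCODE transcripts of Rgs3, Rgs4 and Rgs5 share no run of 31 bases with each other, and only 2 of 210 pairs among 21 RGS genes do, neither of which includes these 3 (Rgs14 with Rgs17, and Rgs8 with Rgs20).

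**Figure D5:**
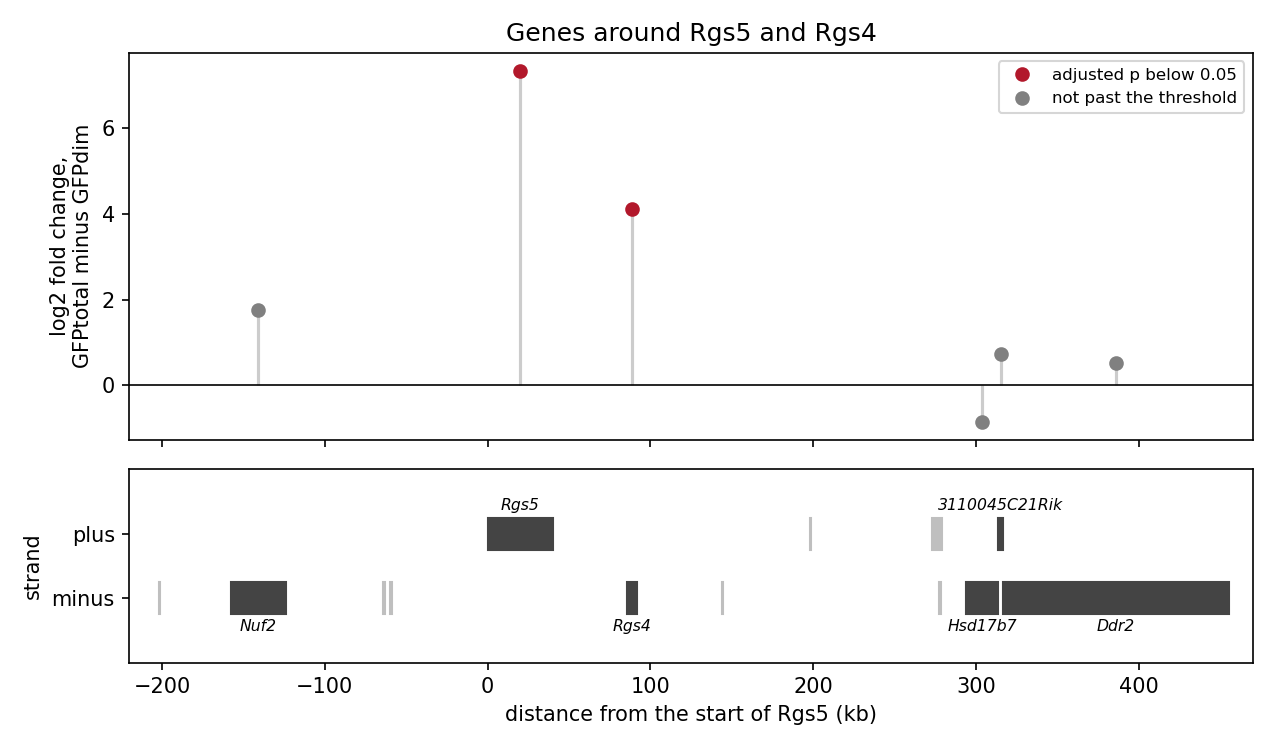
Log2 fold change, GFPtotal minus GFPdim, of the tested genes around Rgs5 by their distance from its start (kb), above the annotated genes on each strand (dark, tested; grey, not tested). Rgs5 and Rgs4 reach 7.34 and 4.11, and the 4 other tested genes lie between -0.85 and 1.75 and did not pass the threshold.

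Among 11 further RGS genes outside the 10, 4 were tested and 0 were called by edgeR, with a median log2 fold change of -0.39 and 1 gene at an unadjusted p below 0.05. DESeq2 called 0 of them and limma-voom 1, Rgs9. Rgs9, an R7 member like Rgs7, ranged from 0.357 to 11.04 CPM in GFPtotal and from 5.31 to 24.7 in GFPdim (log2 fold change -1.46, edgeR adjusted p = 0.207), which overlap. Rgs19 and Rgs22 had log2 fold changes of -0.11 (adjusted p = 0.891) and 0.24 (0.811). Rgs8, Rgs14 and Rgs18 had 0 counts in all 12 libraries. Of the genes with an RGS-like domain in other protein families, such as the GRK kinases, Axin and the RhoGEFs, 14 were tested and 0 were called by edgeR, DESeq2 or limma-voom (3 at an unadjusted p below 0.05), with Arhgef12 at 0.17 (adjusted p = 0.582) and the sorting nexin Snx13 at 0.01 (0.990).

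Beside 4.55% of all tested genes, 1 of the 2 tested RGS partners was called higher in GFPtotal. This gene, Rgs7bp, which anchors complexes of R7 proteins and Gnb5 at the membrane, had 2.55, 2.27, 6.79, 5.34, 13.6 and 3.03 CPM in GFPtotal 1 to 6, and 0, 0, 0, 0.118, 0 and 1.52 CPM in GFPdim 1 to 6. The groups did not overlap, and 28 of the 30 GFPdim counts were in GFPdim 6, without which the log2 fold change of Rgs7bp was 7.40. Rgs7bp passed a filter that did not require counts in both groups, so its higher call is partly built in. Its log2 fold change was 4.27 (SE 1.10, edgeR adjusted p = 0.0321), a call lost under 9 of 20 alternatives (no filter on low counts, without GFPtotal 3, 4 or 5, without GFPdim 2, 3, 4 or 5, and without GFPtotal 3, 4 and 5 together, with adjusted p up to 0.326). Gnb5 itself had a log2 fold change of -0.05 (adjusted p = 0.954), and the other 3 partners on the list were not tested, with Rgs9bp at 0 counts.

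G alpha subunits are the substrates of RGS proteins. Of 16 subunits 11 were tested, with a median log2 fold change of -0.01, and 1 was called higher. This was Gnas, the Gs subunit that stimulates adenylyl cyclase, with 15.8 ± 3.78 CPM in GFPtotal and 7.24 ± 1.51 CPM in GFPdim (n = 6 each, no overlap, log2 fold change 1.12, SE 0.26, edgeR adjusted p = 0.0165), a call lost with total library sizes, with the replicate block and without GFPtotal 3, 4 and 5 (adjusted p = 0.190). Gnas shares 22.0% of its exonic bases with other genes, so its value is uncertain to that extent. Gq and Gi subunits, on which R4 proteins act, did not pass the test: Gnaq stood at 78.6 ± 10.3 and 79.0 ± 12.3 CPM (log2 fold change -0.01, adjusted p = 0.986), Gnai2 at -0.01 (0.994) and Gnai3 at -0.50 (0.130). Gnai1 stood at -0.41 (0.406), Gnao1 at 1.03 (0.176), Gna11 at 0.14 (0.917) and Gna14 at -0.64 (0.422), all from the edgeR fit. Of the 11 tested subunits, 4 were at an unadjusted p below 0.05. Of 9 tested G beta and gamma subunits 0 were called by edgeR (3 at an unadjusted p below 0.05), 3 by DESeq2 (Gnb4, Gng11 and Gngt2) and 0 by limma-voom, with Gng12 at -0.57 (adjusted p = 0.440) and Gnb1 at -0.30 (0.317).

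Among effectors of these G proteins, 2 of 17 tested genes were called higher and 0 lower, beside 4.55% and 0.854% of all tested genes. Both called effectors were phospholipases of the Gq pathway. Plcb1 had 8.66, 14.5 and 21.9 CPM as lowest, median and highest value in GFPtotal and 0.434, 2.83 and 5.25 CPM in GFPdim, without overlap. For Plcb1 the log2 fold change was 2.35 (SE 0.45, edgeR adjusted p = 0.00502), and the call was lost without GFPtotal 3, 4 and 5 (adjusted p = 0.0649). Plcb4 ranged from 4.37 to 37.3 CPM in GFPtotal and from 0 to 5.31 in GFPdim, which overlapped (log2 fold change 4.20, SE 1.09, adjusted p = 0.0424), and its call was lost under 11 of 20 alternatives (no filter, without GFPtotal 3, 4, 5 or 6, without GFPdim 1, 2, 3, 4 or 6, and without GFPtotal 3, 4 and 5 together, with adjusted p up to 0.272). GFPdim 5 held 73 of the 93 GFPdim counts of Plcb4, and without it the log2 fold change of Plcb4 was 6.29. Like Rgs7bp, Plcb4 could be tested on its GFPtotal counts, so its higher call is partly built in. The median log2 fold change of the 17 effectors was 0.24. Of 5 tested GoLoco proteins and G alpha chaperones 0 were called by edgeR, DESeq2 or limma-voom (1 at an unadjusted p below 0.05), with Gpsm2 at 0.93 (adjusted p = 0.225) and Ric8b at -0.03 (0.970). Of the 3 arrestins tested, Arrdc3, an arrestin-like protein involved in receptor degradation, was called higher, from 21.9 ± 10.99 CPM in GFPdim to 72.9 ± 13.6 CPM in GFPtotal (a difference of 1.73 on the log2 scale, SE 0.29, edgeR adjusted p = 0.00185). Arrb1, a beta-arrestin gene, stood at -1.07 (edgeR adjusted p = 0.105) and was called lower by DESeq2 and without GFPtotal 4.

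Rgs5 and Rgs4 rose together with mural cell genes. All 6 mural markers with enough counts were called higher in GFPtotal and none of the 6 overlapped between the groups. The filter did not require counts in both groups, so a marker such as Kcnj8 could be tested on its GFPtotal counts. For such a marker a higher call is partly built in. The other 4, Higd1b, Cox4i2, Ndufa4l2 and Vtn, were not tested. They had 32, 42, 64 and 94 counts over GFPtotal, and 0, 0, 3 and 1 over GFPdim. With these 4 included, the summed CPM was 330 to 695 in GFPtotal and 5.78 to 12.2 in GFPdim. The largest changes were those of Abcc9 (7.54, adjusted p = 0.000217) and Kcnj8 (5.45, 0.0121), subunits of an ATP-sensitive potassium channel of mural cells, and Gucy1a1 (4.75, 4.14e-05), a nitric oxide receptor subunit, as log2 fold changes from edgeR, and the call of Kcnj8 was lost without GFPtotal 3, 4 and 5 (adjusted p = 0.106). Of the GFPdim counts of Kcnj8, 29 of 31 were in GFPdim 6. For Abcc9, GFPdim 5 held 93 of the 176 counts, and the other GFPdim libraries held 4 to 43 each. Without GFPdim 6 the log2 fold change of Kcnj8 was 8.62, and without GFPdim 5 the log2 fold change of Abcc9 was 8.49. The level left in GFPdim was 0.547% of that in GFPtotal for Abcc9 (0.274% without GFPdim 5), 2.14% for Kcnj8 (0.218% without GFPdim 6) and 12.8% for Notch3 (7.58% without GFPdim 1), beside 0.615% for Rgs5 and 5.75% for Rgs4 (0.458% and 3.90% without GFPdim 6). Of 8 tested smooth muscle markers 4 were called higher, among them Myh11 at 5.41 (adjusted p = 0.00205). Smooth muscle markers summed to 299 to 412 CPM across GFPdim libraries, below the 454 to 754 CPM of GFPtotal. Of the called smooth muscle markers, Acta2 had 57.0 ± 22.2 CPM in GFPtotal and 1.75 ± 1.72 CPM in GFPdim. The GFPdim sum thus came almost wholly from other genes of that list. Of 10 fibroblast markers 0 were called by edgeR (3 at an unadjusted p below 0.05), 2 by DESeq2 (Col1a1 and Fbln1) and 0 by limma-voom. The fibroblast sums overlapped but reached higher values in the mixture, with 9392 to 16470 CPM for GFPdim against 13952 to 29004 for GFPtotal. The part of a differing share of mural cells in the RGS differences was not tested.

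Markers of other cell types and genes of acute stress were read in the same way. Of the immediate early genes, which are quickly induced by dissociation and other stimuli, 5 of 16 tested genes were called higher in GFPtotal, with Nr4a3 at 3.08 (adjusted p = 0.0306) and Btg2 at 1.69 (0.00185), and all 16 had a log2 fold change above 0 (median 1.00). The call of Nr4a3 was lost without GFPtotal 3 or 4, without GFPdim 1, 5 or 6, and without GFPtotal 3, 4 and 5 together (adjusted p up to 0.0681). Their summed CPM was 1771 to 2564 in GFPtotal and 779 to 1886 in GFPdim, and their part in the RGS values was not tested. Endothelial markers summed to 33.5 to 59.8 and 39.6 to 60.2 CPM, with Cdh5 called lower (log2 fold change -1.67, edgeR adjusted p = 0.0374, lost under 9 alternatives, among them without GFPtotal 3, 4, 5 or 6 and without GFPdim 1 or 3) and Cldn5 at 0 in every library. Of the 4 tested endothelial markers 3 were at an unadjusted p below 0.05, and Emcn, with a log2 fold change of 1.71 (edgeR adjusted p = 0.0562), was called higher by DESeq2 and by limma-voom. Epithelial markers summed to 1.603 to 17.8 and 8.56 to 14.5 CPM, with 0 of 5 called by edgeR, DESeq2 or limma-voom (0 at an unadjusted p below 0.05).

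By likeness of profile, Rgs5 ran closest to Aspn, Btbd3, Itga1, Abcc9 and Acta2. Among tested genes with a mean log2 CPM of at least 3, their Pearson correlations with Rgs5 in log2 CPM over the 12 libraries were 0.988, 0.981, 0.975, 0.973 and 0.972, a description without a test over 2 groups that lie far apart in Rgs5. Within the 6 GFPtotal libraries the correlation with Rgs5 was 0.33 for Aspn and 0.81 for Abcc9. For Rgs4 the closest genes were Itga1 (0.976), Col12a1 (0.955) and Crim1 (0.954), with 0.86, 0.987 and 0.62 within GFPtotal. For Rgs3 they were Ccdc71l (0.975), Creb1 (0.968) and Ggt5 (0.959), which like Rgs3 had lower means in GFPtotal, with log2 fold changes of -1.29, -0.91 and -0.79 (edgeR adjusted p = 0.0469, 0.0118 and 0.0821). The call of Ccdc71l was lost under 11 of 20 alternatives (no filter on low counts, the replicate block, without GFPtotal 3, 4 or 5, without GFPdim 2, 3, 4, 5 or 6, and without GFPtotal 3, 4 and 5 together), and that of Creb1 without GFPtotal 3, 4 and 5 together (adjusted p = 0.0607).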

How the data were processed

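RNA-seq of 12 libraries, 6 GFPtotal and 6 GFPdim, grouped by the labels, was analysed from raw counts. Per the file headers, the deposited counts are paired-end fragments over the exons of each gene, made by the authors with featureCounts 1.6.4 on Ensembl release 84 (GRCm38), with a mapping quality of at least 10 and without use of strand. The submitters' processing notes name cutadapt and SAMtools, with an aligner not given in the sources used here. The deposited table of the whole series equalled the single files in 12 of 12 libraries. Symbols were found by identifier for 47224 of 47729 genes.

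Genes were filtered with filterByExpr, scaled by TMM and tested with edgeR 4.0.16 (robust quasi-likelihood test, R 4.3.3, two-sided, Benjamini-Hochberg over 14523 genes, threshold 0.05). CPM use TMM-scaled library sizes, RPKM adds the exonic length, with a prior count of 2 on the log2 scale. The procedure was tested on simulated data with independent libraries and the same spread for every gene. The simulation held no split such as that of GFPtotal 3, 4 and 5, so it cannot show how the procedure behaves with such a split. Differences between Rgs5 and other members used exact permutation tests. Alternatives were another normalization (DESeq2's size factors, total library size), mitochondrial genes left out, no filter, DESeq2 1.42.0, limma-voom 3.58.1, a prior count of 0.5, a replicate block and leaving out each library; leaving out GFPtotal 3, 4 and 5 together was added after seeing the data. Counting depth limits the low members, and no interval here covers more than the spread between libraries.

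The members and gene lists were chosen with earlier results of these data known. Besides the members and Pdgfrb, genes were named by rule: for each list, the called genes that changed most (at most 3) or otherwise its 2 most abundant, the 5 genes most like Rgs5 and 3 most like Rgs3 and Rgs4, and genes within 250 kb of a called member. Some genes of marker lists that the rule allows are given only within counts. Rgs9, Rgs20, Gnaq, Gna11, Gna14, Gnai1, Gnai2, Gnai3, Gnao1, Notch3 and genes called by another tool alone were named after their values were seen. So were the mural markers that were not tested. Promoter sequences come from RefSeq (GRCm38.p6).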

Additional observations from a re-analysis of the deposited data

How the results depend on the processing

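The calls of Rgs5 and Rgs4 and their direction held under all 20 alternatives, with log2 fold changes of Rgs5 from 7.12 to 7.86 and of Rgs4 from 3.29 to 4.66. The 8 differences between Rgs5 and another member kept their direction and call in all 144 alternative values, but scaling cancels in a difference within a library, and a lack of overlap between the groups leaves p at or near its smallest value, so this says little about stability. For Rgs3 the log2 fold change stayed below 0 (-1.71 to -0.85), with its call lost under 10 alternatives, and for Rgs7 it ranged from -2.63 to -1.80, called under 3. The count of RGS members called lower was 2 with total library size and with DESeq2, 0 without GFPtotal 3, 4 and 5, and 0 to 1 leaving out each library. The count of all genes called was 1384 with DESeq2 (count of all genes called higher 1034, count of all genes called lower 350), 295 without GFPtotal 3, 4 and 5 (245 higher, 50 lower, with fewer libraries), and 467 to 970 leaving out each library (406 to 791 higher, 61 to 179 lower, lowest without GFPtotal 3). The count called lower was 257 with total library size and 230 with limma-voom. The causes of these shifts in the counts were not tested.

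Whether replicate numbers pair the libraries is unknown. Deviations of same-numbered libraries from their group means correlated at -0.139 to 0.0892, and 2 of 6 libraries correlated best with their own number. These deviations span all tested genes and include the split of GFPtotal 3, 4 and 5, so they cannot exclude a pairing. With the replicate number as a block, the log2 fold change of Rgs5 was 7.78, the log2 fold change of Rgs4 4.48 and the log2 fold change of Rgs3 -1.64 (edgeR adjusted p = 0.0762), and the count of RGS members called lower was 0.

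Of 1524 alternative values, 29 changed sign, all of them of uncalled genes. Leaving out each library gave the log2 fold change of Rgs2 a range of -0.33 to 0.024 (above 0 without GFPtotal 1, 2 or 6), the log2 fold change of Rgs17 one of -0.028 to 0.16 (below 0 without GFPtotal 1 or GFPdim 5), the log2 fold change of Rgs1 one of -0.32 to 1.43 (below 0 without GFPtotal 4 or 5), the log2 fold change of Rgs19 one of -0.31 to 0.037 (above 0 without GFPtotal 5), the log2 fold change of Ric8b one of -0.13 to 0.099, and the log2 fold change of Snx13 one of -0.066 to 0.052. Without GFPtotal 3, 4 and 5 together, the log2 fold change of Rgs1 was -4.19, the log2 fold change of Rgs17 -0.038, the log2 fold change of Rgs19 0.28, the log2 fold change of Rgs12 -0.095, the log2 fold change of Rgs22 -0.48, the log2 fold change of Gpsm2 -0.35, the log2 fold change of Gng12 0.044 and the log2 fold change of Arhgef12 -0.16. For Snx13 it was -0.016 with DESeq2's size factors and with DESeq2, -0.076 with total library size, -0.020 with mitochondrial genes left out and -0.0021 without a filter. A difference in Rgs1 or Rgs16 is limited by counts of 0 in several libraries.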
